A study of Mus musculus with 15 samples.

Results

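The transport genes described here are 9 genes that move, tether or supply melanosomes: the small GTPases Rab27a, Rab27b and Rab32, the linkers Myrip and Mlph, the motors Myo5a and Myo7a, and the synaptotagmin-like proteins Sytl2 and Sytl4. They were chosen by name, and all 9 were found among the 46078 genes of the deposited count table. The retinal pigment epithelium (RPE) is the pigmented layer behind the photoreceptors, and its poly-A RNA was sequenced from female mice at postnatal day 14, with extraction starting 2 hours after light onset. There were 15 libraries in 4 groups: Mertk WT (wild-type Mertk, 4 libraries), Mertk KO (Mertk knockout, 4 libraries), and wild-type Mertk with the Bai1 transgene (Bai1 Tg pos, 3 libraries) or without it (Bai1 Tg neg, 4 libraries). The strain label is the same throughout, a mixture of c57Bl/6J with B6;129-Mertktm1Grl/J, so a background that includes the Mertk knockout line is shared by controls and mutants. Mertk is an engulfment receptor with which RPE cells clear photoreceptor outer segments each day, and Bai1, gene symbol Adgrb1, is a receptor for phosphatidylserine on dying cells. The sources used here do not give the promoter that drives the transgene, the number of lines, or whether libraries came from separate animals. A p-value therefore speaks of the spread among libraries, part of which may be technical.

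Melanosomes are lysosome-related organelles that mature in the cell body and are then handed from microtubules to actin. Rab27a, in its GTP-bound form, sits on the melanosome membrane and recruits a linker that in turn binds a myosin. In melanocytes that linker is melanophilin (Mlph) and the motor myosin Va (Myo5a), whereas in the RPE the linker is Myrip and the motor myosin VIIa (Myo7a), which carries melanosomes into the apical processes that surround outer segments. Mouse mutants of Rab27a (ashen), Mlph (leaden) and Myo5a (dilute) have pale coats, and loss of Myo7a (shaker1) keeps melanosomes out of the apical processes of the RPE.

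Promoter letters are shown for the RPE complex, Rab27a, Myrip and Myo7a, which had the highest levels per length, and for Mlph, the melanocyte linker. Each line gives bases before a RefSeq transcription start in GRCm38.p6, 5′ to 3′ on the gene's strand, without bases that lie in exons of the deposited table. Capitals mark matches to CACGTG or CATGTG, the E-box letters that MITF-type factors can read, the second also as its reverse complement. Myo7a is shown at both of its RefSeq starts, the second of which lies inside the gene. Rab27a is shown at its first start only. Its second start, also inside the gene, has a CACGTG match that is described below.
Rab27a, chr9:73044560-73044809, plus strand: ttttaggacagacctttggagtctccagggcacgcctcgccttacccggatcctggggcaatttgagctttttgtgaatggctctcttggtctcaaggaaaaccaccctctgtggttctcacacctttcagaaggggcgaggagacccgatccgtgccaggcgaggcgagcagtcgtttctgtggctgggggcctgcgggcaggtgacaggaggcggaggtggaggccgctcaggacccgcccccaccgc
Myrip, chr9:120303823-120303935, plus strand: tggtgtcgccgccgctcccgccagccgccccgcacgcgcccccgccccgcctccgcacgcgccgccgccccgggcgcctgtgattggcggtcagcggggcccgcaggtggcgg
Myo7a first start, chr7:98119525-98119743, minus strand: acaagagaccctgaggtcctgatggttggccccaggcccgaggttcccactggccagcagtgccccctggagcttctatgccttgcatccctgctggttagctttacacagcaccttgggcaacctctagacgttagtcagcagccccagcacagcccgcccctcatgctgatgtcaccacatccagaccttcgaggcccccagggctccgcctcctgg
Myo7a second start, chr7:98109249-98109498, minus strand: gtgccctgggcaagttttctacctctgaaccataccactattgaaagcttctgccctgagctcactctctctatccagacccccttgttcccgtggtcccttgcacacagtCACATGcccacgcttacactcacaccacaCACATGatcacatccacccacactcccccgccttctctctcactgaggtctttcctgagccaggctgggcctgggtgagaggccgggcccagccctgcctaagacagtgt
Mlph, chr1:90914850-90915084, plus strand: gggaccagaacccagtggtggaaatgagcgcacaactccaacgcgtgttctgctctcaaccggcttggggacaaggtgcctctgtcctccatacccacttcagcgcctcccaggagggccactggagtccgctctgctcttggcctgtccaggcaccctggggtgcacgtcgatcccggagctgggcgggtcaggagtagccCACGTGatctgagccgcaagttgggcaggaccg

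RefSeq promoters of the kind shown were read for 7 of the 9 genes (not Sytl2 and Rab27b), at 9 starts, and the full 250 bases before each start were searched on both strands for 3 strings. They were the E-box CACGTG, the related E-box CATGTG and TAATCC, which OTX factors can read. Of these, CACGTG occurred 48 bases before the Mlph start and 246 bases before a second Rab27a start. CATGTG occurred at the second Myo7a start, 139 and 110 bases before it, each time as its reverse complement. Over 32851 RefSeq promoters of the same length, 6.02% held CACGTG, 12.3% held CATGTG and 6.25% held TAATCC. The last was in none of the 9 windows, and the first starts of Rab27a and Myo7a and the starts of Myrip, Myo5a, Sytl4 and Rab32 held none of the 3 strings. Base composition differed among the windows, with G and C making up 82.4% of the Myrip window, 64.8% of that of Mlph, 63.2% of that of the first Myo7a start and 62% of that of the first Rab27a start. A match is a string of letters and no measurement of binding.

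Library totals ran from 9591129 to 20024507 counts, and values below are CPM, the counts scaled to library size, with TMM factors over the 15 libraries. In the library labelled Bai1 Tg neg 4, Adgrb1 was at 143.5 CPM, against 166 to 170 CPM in Bai1 Tg pos and at most 0.14 CPM in the other Bai1 Tg neg libraries, so its reading goes against its label. The members' fold changes, partly as ranges, and their calls are also given without this library. Levels and ratios per length, overlaps of groups and correlations include it. Mertk was at 155 to 196 CPM in Mertk KO and at 218 to 262 CPM in the other groups. The exons that the knockout allele lacks are not named in the labels. Of 8 RPE markers, Ttr (24271 CPM), Rgr (13022 CPM) and Rpe65 (5237 CPM) were abundant, whereas Best1 was low at 0.743 CPM, and the summed level was 50686 to 60000 CPM in every library. In bulk RNA, fewer cells of a type and less RNA per cell cannot be told apart.

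Divided by exon length, the 9 genes spread over a wide range, with the RPE complex at the top and Rab27b and Sytl4 at the bottom. Myrip (142.9 ± 11.6 CPM per kb, SD, n = 15) and Rab27a (140.7 ± 7.11 CPM per kb) led, and their ranges over the 15 libraries overlapped. Within Bai1 Tg neg, Rab27a (138.3 to 150.6 CPM per kb) lay above Myrip (132.6 to 137.8 CPM per kb) with no overlap. Rab27a was also the higher of the pair in each Bai1 Tg pos library, where its ratio to Myrip was 1.01 to 1.08, whereas the ratio ran from 0.914 to 1.14 in Mertk WT and from 0.808 to 1.03 in Mertk KO. Next came Myo7a (51.0 ± 3.08 CPM per kb) and Sytl2 (20.5 ± 3.64 CPM per kb), each separated from its neighbours in the order. Myo5a (6.21 ± 0.561 CPM per kb) and Mlph (4.15 ± 0.748 CPM per kb) overlapped only within Mertk KO, and Myo5a lay above Mlph in each of the other groups. Rab32 (1.94 ± 0.274 CPM per kb) stood apart above Sytl4 (0.290 ± 0.137 CPM per kb) and Rab27b (0.177 ± 0.0878 CPM per kb), which overlapped. Among 25132 genes with a count in these libraries, Myrip and Rab27a both lay at percentile 98.8 of CPM per kb, Myo7a at 96.2, Sytl2 at 90.2, Myo5a at 74.9, Mlph at 69.2, Rab32 at 60.3, Sytl4 at 42.9 and Rab27b at 38.1. With the length of the longest coding transcript in place of all exon bases, a choice made after seeing the data, Rab27a (172 CPM per kb) came before Myrip (158 CPM per kb) and no other rank moved.

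**Figure D1:**
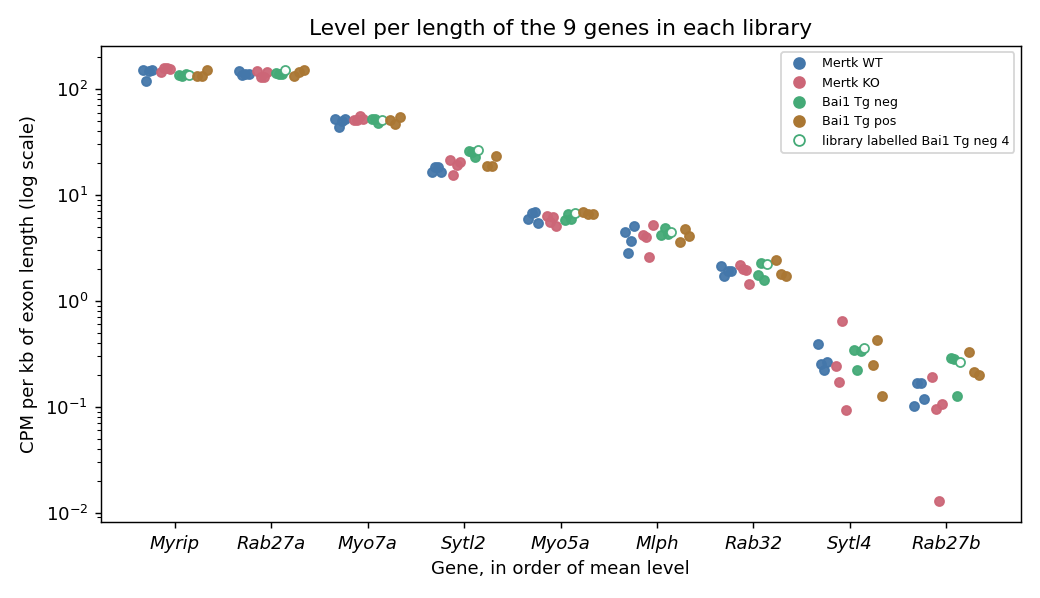
Level of each gene in each of the 15 libraries, in CPM per kb of exon length on a log axis, coloured by group, with the library labelled Bai1 Tg neg 4 as an open circle. Myrip and Rab27a lie near 142.9 and 140.7 CPM per kb, and Sytl4 and Rab27b below 1 CPM per kb in every library.

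Rab27a lies at chr9:73044854-73097629 on the plus strand (GRCm38, as in the deposited table). It is the GTPase that marks mature melanosomes, and its loss causes Griscelli syndrome in humans. It read 569, 529, 542 and 535 CPM in Mertk WT, 575, 504, 500.04 and 560 CPM in Mertk KO, 549.9, 536, 536 and 584 CPM in Bai1 Tg neg, and 516, 559 and 591 CPM in Bai1 Tg pos. The 4 groups overlapped, and the highest library was 1.18 times the lowest, with a coefficient of variation of 5.05% over the 15 libraries. The fitted log2 fold changes were −0.03 (SE 0.07) for Mertk KO over Mertk WT, 0.01 (SE 0.07) for Bai1 Tg pos over Bai1 Tg neg, and 0.02 (SE 0.06) for Bai1 Tg neg over Mertk WT. Their 95% intervals reached no further than 0.877-fold to 1.09-fold, 0.915-fold to 1.11-fold and 0.923-fold to 1.12-fold. Of its neighbours in the annotation, only Gm27186 shares exon bases with it (149 bases), and that model had 0 CPM.

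Rab27b, the close relative of Rab27a that acts in secretion from platelets and gland cells, lies on chromosome 18 at 69979131 to 70141605, minus strand. It was near the limit of detection, at 1.08, 1.80, 1.80 and 1.25 CPM in Mertk WT, 2.04, 1.01, 0.138 and 1.12 CPM in Mertk KO, 3.08, 3.04, 1.35 and 2.80 CPM in Bai1 Tg neg, and 3.53, 2.26 and 2.14 CPM in Bai1 Tg pos. Those values rest on 2 to 56 counts per library. Every Bai1 Tg pos library lay above every library of the Mertk groups, in pairs that were not tested and without a share over all genes. Per length, Rab27a exceeded Rab27b by 402 to 9943 times within a library.

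Myrip, the RPE linker, lies at chr9:120303936-120474841 on the plus strand and binds Rab27a, Myo7a and actin. Its levels were 823, 654, 804 and 821 CPM in Mertk WT, 779.8, 859, 868 and 846 CPM in Mertk KO, 739.8, 721, 749 and 733 CPM in Bai1 Tg neg, and 715, 723 and 824 CPM in Bai1 Tg pos. Mertk WT 2 was the lowest library of all, and the other Mertk WT libraries lay within the range of Mertk KO. Every Mertk KO library lay above every Bai1 Tg neg library. That pair crosses the control sets and was not tested, and the share of all genes set apart in it was not counted. Mertk KO exceeded Mertk WT by 0.11 on the log2 scale (SE 0.09), with a 95% interval from 0.943-fold to 1.23-fold.

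Mlph, the melanocyte counterpart of Myrip, lies at chr1:90915085-90951142 on the plus strand. It read 24.1, 15.3, 19.5 and 27.3 CPM in Mertk WT, 22.4, 21.3, 13.9 and 27.6 CPM in Mertk KO, 22.5, 26.2, 22.9 and 24.1 CPM in Bai1 Tg neg, and 19.1, 25.4 and 21.7 CPM in Bai1 Tg pos. No group stood apart. Per length, Myrip was higher than Mlph in every library, by 35.7 ± 8.50 times (SD, n = 15; range 27.1 to 61.4).

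Myo7a, the RPE motor and a gene of Usher syndrome and of shaker1 mice, lies at chr7:98051060-98119524 on the minus strand. It read 449, 370.3, 429 and 447 CPM in Mertk WT, 436, 433, 474 and 445 CPM in Mertk KO, 446, 447, 405 and 434 CPM in Bai1 Tg neg, and 439.6, 401 and 468 CPM in Bai1 Tg pos. As with Myrip, Mertk WT 2 was the lowest of the 15 libraries, and the groups overlapped. Its log2 fold changes were 0.07 (SE 0.08) in the Mertk comparison, 0.02 (SE 0.07) in the transgene comparison and 0.03 (SE 0.08) between the control sets.

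Myo5a, the melanocyte motor, lies at chr9:75071015-75223688 on the plus strand. Its levels were 88.3, 99.6, 102 and 79.6 CPM in Mertk WT, 93.8, 82.7, 92.0 and 75.9 CPM in Mertk KO, 85.8, 96.7, 87.0 and 99.996 CPM in Bai1 Tg neg, and 101.5, 97.4 and 96.8 CPM in Bai1 Tg pos. The groups compared with each other overlapped, while every Bai1 Tg pos library lay above every Mertk KO library. That pair also crosses the control sets and was not tested, and no share over all genes was counted for it. Per length, Myo7a was higher than Myo5a in every library, by 8.29 ± 1.02 times (SD, n = 15; range 6.46 to 10.2). The ratio of Rab27a to Myrip per length was 0.991 ± 0.0956, and that of Myrip to Myo7a 2.80 ± 0.164.

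Sytl2, whose product Slp2-a binds Rab27 and, through a C2 domain, phosphatidylserine, lies at chr7:90348699-90410439 on the plus strand and varied with the control set. Its levels were 114, 125, 126 and 112 CPM in Mertk WT, 149, 106, 133 and 139.7 CPM in Mertk KO, 179, 176, 156 and 183 CPM in Bai1 Tg neg, and 128, 128 and 162 CPM in Bai1 Tg pos. The 4 Bai1 Tg neg libraries all lay above the 4 Mertk WT libraries, whereas Bai1 Tg pos 3 lay within the range of Bai1 Tg neg and the Mertk groups overlapped. Bai1 Tg pos also lay above Mertk WT in every library, and Bai1 Tg neg above Mertk KO. Those pairs were not tested, and no share over all genes was counted for them. Its coefficient of variation over the 15 libraries was 17.8%.

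Sytl4 (granuphilin), a Rab27 effector known from insulin granules, lies on chromosome X at 133936385 to 133981812, minus strand. It read 2.02, 1.31, 1.13 and 1.35 CPM in Mertk WT, 1.24, 0.873, 3.32 and 0.472 CPM in Mertk KO, 1.77, 1.13, 1.70 and 1.85 CPM in Bai1 Tg neg, and 1.28, 2.20 and 0.641 CPM in Bai1 Tg pos. These values rest on 8 to 48 counts per library. Mertk KO held both the highest and the lowest of the 15 libraries, so its range covers the other groups. Sytl2 exceeded Sytl4 per length by 29.8 to 220.3 times within a library.

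Rab32, which with Rab38 routes pigment enzymes to the forming melanosome, lies on chromosome 10 at 10545011 to 10558233, minus strand. It read 4.51, 3.65, 4.01 and 4.06 CPM in Mertk WT, 4.56, 4.23, 4.15 and 3.07 CPM in Mertk KO, 3.70, 4.83, 3.33 and 4.74 CPM in Bai1 Tg neg, and 5.10, 3.81 and 3.63 CPM in Bai1 Tg pos. The groups overlapped. Its relative Rab38 was higher per length in every library, by 7.96 ± 1.59 times (SD, n = 15; range 5.11 to 11.3).

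**Figure D2:**
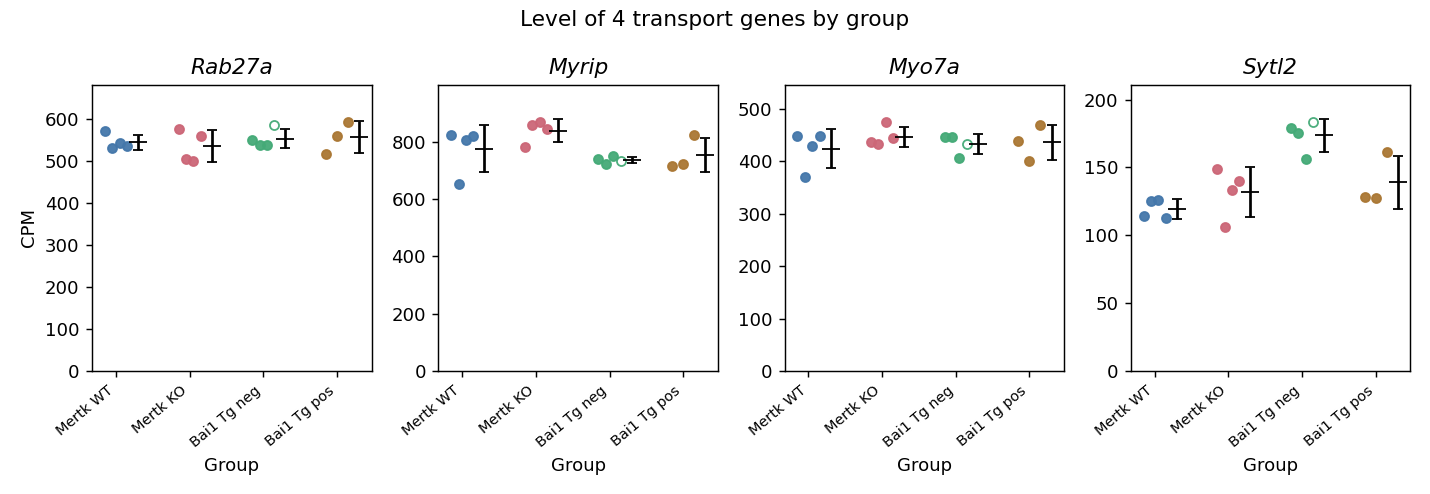
CPM of Rab27a, Myrip, Myo7a and Sytl2 in each library (points) by group, with the group mean and SD as a bar beside them and axes from 0, the library labelled Bai1 Tg neg 4 being an open circle. Sytl2 lies at 156 to 183 CPM in Bai1 Tg neg and at 112 to 126 CPM in Mertk WT, while Rab27a and Myo7a overlap across all groups. Myrip overlaps in the 3 pairs of groups compared. It lies higher in Mertk KO (779.8 to 868 CPM) than in Bai1 Tg neg (721 to 749 CPM), a pair that was not tested.

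The first comparison asked whether the set differed in RPE without Mertk. No member differed between Mertk KO and Mertk WT in edgeR's quasi-likelihood F test over all genes (0 of 9 called, adjusted p from 0.907 to 1). DESeq2 and limma-voom also called 0 of 9, and no member had an unadjusted p under 0.05 in edgeR. Across the 13447 genes tested, 0.0595% were called higher and 0.164% lower, and the groups of 3.52% did not overlap, against 0 of the 9 members. Of the members, 4 lay above 0 and 5 below, with a median log2 fold change of −0.01 beside −0.00097 over all genes. The largest changes by size were −0.45 for Rab27b (SE 0.54, interval 0.326-fold to 1.64-fold) and 0.14 for Sytl2 (SE 0.10, interval 0.949-fold to 1.28-fold). For Myo5a the change was −0.11 (SE 0.10, interval 0.801-fold to 1.07-fold), for Mlph −0.01 (SE 0.22, interval 0.704-fold to 1.40-fold), for Rab32 −0.02 (SE 0.22) and for Sytl4 0.0050 (SE 0.53, interval 0.452-fold to 2.23-fold). The intervals of Sytl4 and Rab27b are the widest, and changes of a size inside them remain possible. The parts of low counts and of spread between libraries in that width were not tested.

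The second comparison asked whether the Bai1 transgene went with a different level. Sytl2 averaged 139 ± 19.5 CPM (SD, n = 3) in Bai1 Tg pos and 174 ± 11.9 CPM (SD, n = 4) in Bai1 Tg neg, a log2 fold change of −0.31 (SE 0.09, interval 0.703-fold to 0.9195-fold). Its adjusted p over all genes was 0.84 in edgeR's quasi-likelihood F test, so it did not pass the threshold, although it ranked 57th by p of the 13855 genes tested. Leaving out Bai1 Tg neg 4, the change was −0.29 (SE 0.10, edgeR adjusted p 0.988). That library, whose Adgrb1 level was near that of Bai1 Tg pos, had the highest Sytl2 of the 15 libraries (183 CPM). Without Bai1 Tg pos 3 it was −0.44 and passed the edgeR test (adjusted p 0.0311), in a fit that called 54 genes in place of 2. Over its 13 alternative settings, the edgeR, DESeq2 and limma-voom adjusted p of Sytl2 ran from 0.0262 to 1.

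Markers of smooth muscle and pericytes and of rods mostly lay higher in Bai1 Tg pos, where Sytl2 was lower, while those of some other cell types lay lower. The smooth muscle and pericyte list summed to 241 to 435 CPM in Bai1 Tg pos and to 188 to 229.8 CPM in Bai1 Tg neg, with no overlap. Of its 4 tested genes, 3 had an unadjusted p under 0.05 in edgeR and 0 were called (median log2 fold change 1.60, edgeR adjusted p from 0.715). Without Bai1 Tg neg 4 the median was 1.63 (edgeR adjusted p from 0.752). Pdgfrb was the 1 gene that lay lower, and Myh11 ran from 0.374 to 97.2 CPM within Bai1 Tg pos. All 10 rod genes lay higher, with a median of 1.41 and none called (edgeR adjusted p from 0.551), while their summed levels overlapped between the groups, and without Bai1 Tg neg 4 all 10 were again higher, with a median of 1.32 (edgeR adjusted p from 0.933). By contrast, all 4 tested melanocyte genes, 2 of 3 endothelial genes, the 1 macrophage gene and the 1 erythroid gene lay lower. Cone (2 of 3), Mueller glia (3 of 4) and fibroblast (2 of 3) genes lay mostly higher, and 0 of all these were called by edgeR. The part of these markers in the Sytl2 value was not tested.

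For the other 8 members the transgene comparison gave changes between −0.23 (Sytl4, SE 0.54) and 0.10 (Myo5a, SE 0.08). Mlph changed by −0.11 (SE 0.13), Myrip by 0.04 (SE 0.07), Rab27b by 0.03 (SE 0.41) and Rab32 by 0.0033 (SE 0.29). Without Bai1 Tg neg 4 the 8 changes lay between −0.15 (Sytl4, SE 0.60) and 0.14 (Myo5a, SE 0.08), and 0 members were called (edgeR adjusted p from 0.988 to 0.999). Adgrb1 was called in that fit (edgeR adjusted p 4.38e-12), and its share of all genes called is not given here. With Bai1 Tg neg 4 kept, 0 of 9 members were called by edgeR, by DESeq2 and by limma-voom, and 1 had an unadjusted p under 0.05 in edgeR. Of all 13855 genes, 0% were called higher and 0.0144% lower, and the groups of 6.2% did not overlap, against 0 of the 9 members. The median log2 fold change was 0.01 for the members and −0.00050 for all genes.

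The third comparison set the controls of the 2 experiments against each other, Bai1 Tg neg over Mertk WT, both with wild-type Mertk. Sytl2 was higher in Bai1 Tg neg, at 174 ± 11.9 CPM (SD, n = 4) against 119 ± 7.18 CPM (SD, n = 4), a log2 fold change of 0.54 (SE 0.07, interval 1.30-fold to 1.62-fold, edgeR adjusted p 0.00681). It was higher in 4 of 4 libraries and ranked 12th by p of 13459 genes. With Bai1 Tg neg 4 left out, the mean was 170 ± 12.2 CPM (SD, n = 3), the change 0.51 (SE 0.08) and the edgeR adjusted p 0.0316. The call was lost without Bai1 Tg neg 1 (log2 fold change 0.51, edgeR adjusted p 0.0515), and over all 14 alternatives the adjusted p ran from 2.84e-08 with DESeq2 to that value. The descriptions give the libraries tag numbers whose first is 12 in the Bai1 groups and 17 or 21 in the Mertk groups, so tag and control set cannot be told apart.

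Among the other members, Rab27b averaged 2.57 ± 0.821 CPM in Bai1 Tg neg and 1.48 ± 0.375 CPM in Mertk WT (SD, n = 4 each), a log2 fold change of 0.78 (SE 0.35) that did not pass the threshold (edgeR adjusted p 0.585). Leaving out Bai1 Tg neg 4 gave 0.74 (SE 0.39, edgeR adjusted p 0.779). Mlph changed by 0.16 (SE 0.15), Sytl4 by 0.15 (SE 0.34), Myrip by −0.08 (SE 0.08), Rab32 by 0.04 (SE 0.21) and Myo5a by −0.0011 (SE 0.09). Thus 1 of 9 members was called higher and 0 lower, against 0.104% and 0.327% of the 13459 genes tested, and 1 of 9 members had groups that did not overlap, against 5.74%. In the fit that left out Bai1 Tg neg 4, 0.0948% of 13710 genes were called higher and 0.109% lower, and Sytl2 was again the only member called. The others then lay between −0.073 (Myrip, SE 0.09) and 0.74 (Rab27b), and Rab27a (−0.0071) and Rab32 (−0.032) changed sign. The median log2 fold change was 0.04 for the members and 0.0021 for all genes. These controls also serve in the first and second comparisons, so the 3 sets of fold changes share libraries: Sytl2 was at 0.14, −0.31 and 0.54, and Rab27a at −0.03, 0.01 and 0.02.

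**Figure D3:**
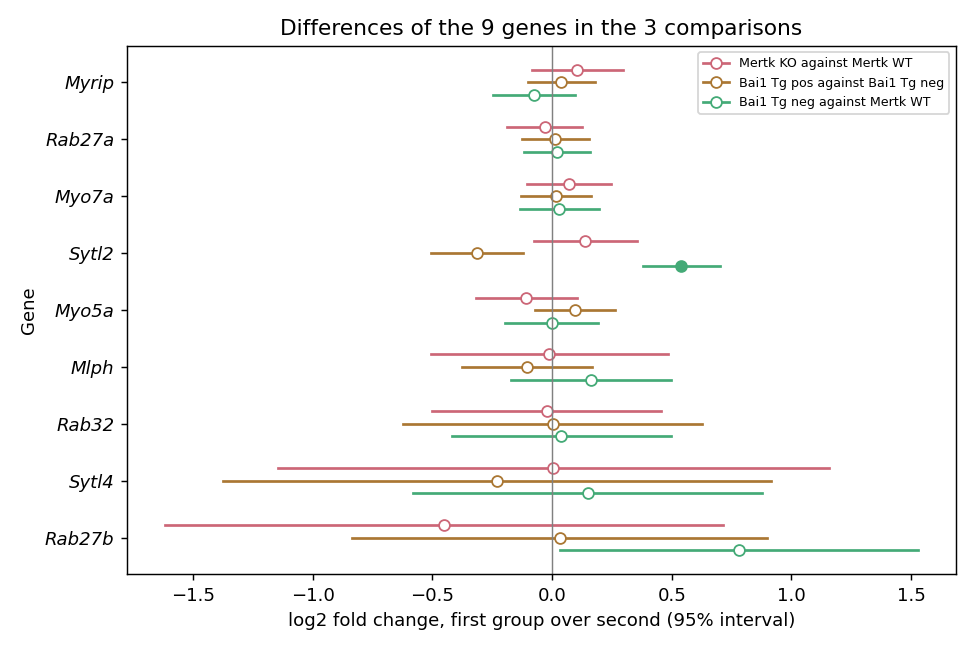
Log2 fold change of each gene with its 95% interval in the 3 comparisons, first group over second, with a filled point where the adjusted p was under 0.05. Only Sytl2 in Bai1 Tg neg against Mertk WT is filled, at 0.54, and the intervals of Sytl4 and Rab27b are the widest.

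Markers of other cell types moved beside the Sytl2 difference. All 10 rod genes on the marker list, Gnat1 among them, lay lower in Bai1 Tg neg than in Mertk WT without overlap, with a median log2 fold change of −4.003, though none passed the edgeR test (adjusted p from 0.0892 to 0.228). Their summed level was 637 to 3237 CPM in Mertk WT, 705 to 1241 CPM in Mertk KO, 46.1 to 267.9 CPM in Bai1 Tg neg and 81.7 to 569.5 CPM in Bai1 Tg pos. Of 5 cone genes, headed by Gnat2 and Opn1sw, 3 were tested and all 3 lay lower (edgeR adjusted p from 0.155), and their summed level was 16.9 to 55.9 CPM in Mertk WT and 8.86 to 16.04 CPM in Bai1 Tg neg. Cd68, a lysosomal protein used as a macrophage marker, was higher by 1.11 on the log2 scale (edgeR adjusted p 0.0263), while Ptprc, Cx3cr1, C1qa and Aif1 were at 0 in all Bai1 Tg neg libraries and the list's sum was 5.27 to 8.88 CPM in Mertk WT and 10.4 to 16.7 CPM in Bai1 Tg neg. Without Bai1 Tg neg 4, the median change of the rod genes was −3.81 (edgeR adjusted p from 0.276), all 5 cone genes were tested and lay lower (median −1.53, edgeR adjusted p from 0.248), and Cd68 was higher by 1.22 (edgeR adjusted p 0.0294). The part of these in the Sytl2 difference was not tested.

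Melanocytes, the pigment cells of the choroid, use Mlph and Myo5a, and their markers were read beside these genes. Sox10 (265 CPM), Mlana (126.0 CPM) and Kit (38.1 CPM) were present, Ednrb was at 2.09 CPM, and Erbb3 (0.474 CPM), Mc1r (0.311 CPM) and Foxd3 (0 in all but 1 group) were too low to test. The list's sum was 342 to 504 CPM in Mertk WT, 439 to 507 CPM in Mertk KO, 405 to 439.6 CPM in Bai1 Tg neg and 373 to 450.3 CPM in Bai1 Tg pos, and 0 of its 4 tested genes were called in any comparison. The share of Mlph and Myo5a counts from such cells was not tested. Of the other lists, Mueller glia summed to 2554 to 2998 CPM, nearly all of it Glul (2620 CPM) and Vim (193 CPM). Its other genes were low, with Slc1a3 at 5.61 CPM, Rax at 1.56 CPM and Aqp4 at 0.142 CPM. Smooth muscle and pericyte summed to 188 to 435 CPM, headed by Acta2 (205 CPM) and Pdgfrb (29.8 CPM). The rest of that list was lower, with Myh11 at 9.57 CPM, Tagln at 4.50 CPM and Rgs5 at 0.606 CPM. Vascular endothelium, headed by Kdr (8.62 CPM) and Egfl7 (3.05 CPM), summed to 7.49 to 18.3 CPM. Fibroblast genes, headed by Col1a2 and Col1a1, summed to 2.94 to 49.4 CPM, and erythroid genes, headed by Hbb-bs and Hba-a1, to 0.0595 to 5.74 CPM. None of these lists had a gene called by edgeR.

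The wider pathway was read through 7 lists with 52 genes in all. None was called by edgeR in any comparison: 0 of 46 tested in the Mertk comparison (5 with an unadjusted p under 0.05), 0 of 47 for the transgene (1) and 0 of 47 between the control sets (3). Over all genes tested, the shares called higher and lower were 0.0595% and 0.164%, 0% and 0.0144%, and 0.104% and 0.327%. With shares this small, 0 calls in lists of this size say little. The share of all genes with an unadjusted p under 0.05 was not counted, here or for the members. DESeq2 called 0, 0 and 1, and limma-voom 0, 0 and 0. The gene called by DESeq2 was Pcdh15, an Usher cadherin of photoreceptors and hair cells, at 0.363 CPM in Bai1 Tg neg and 3.18 CPM in Mertk WT (DESeq2 adjusted p 0.00175, edgeR adjusted p 0.201), and the rod markers given above were lower in the same libraries. The part of the rod level in the Pcdh15 difference was not tested.

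The Rab27 cycle list holds the escort, prenylation, exchange and GTPase-activating proteins, among them Chm, whose loss in choroideremia leaves Rab27a under-prenylated. All 9 were tested, and their median log2 fold changes were 0.01 for Mertk KO, 0.01 for the transgene and −0.03 between the control sets. Gdi2, which extracts Rabs from membranes, was the most abundant at 208 ± 16.5 CPM (SD, n = 15). Among the other Rab27 effectors, Sytl3 (20.6 ± 2.13 CPM) and Unc13d (2.95 ± 0.918 CPM), the latter a priming factor for granule release, led, and Sytl1 and Sytl5 were too low to test.

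In the Rab32 and Rab38 list, all 5 genes were tested, led by Hps4 (146 ± 22.2 CPM), a subunit of the BLOC-3 exchange factor, and Sgsm2 (86.4 ± 6.67 CPM). The medians were 0.05, 0.09 and 0.01 in the 3 comparisons. The 15 cargo sorting genes (BLOC-1, BLOC-2, AP-3 and their partners) had medians of 0.02, −0.03 and −0.0029, with Ap3d1 (300.1 ± 15.4 CPM) and Ap3b1 (94.1 ± 8.05 CPM) the most abundant. Other motors, headed by Dctn1 (294 ± 41.3 CPM) and Dync1h1 (287 ± 32.7 CPM) of the dynein machinery, had medians of −0.04, −0.01 and −0.07. Of the Myo7a partners of the Usher complexes, Whrn (20.2 ± 4.17 CPM) and Ush1c (8.20 ± 2.57 CPM) led, and Ush1g and Cdh23 were too low to test. The actin nucleators Spire2 (99.6 ± 21.3 CPM) and Spire1 (17.7 ± 2.69 CPM) led a list of 3 whose medians were −0.30, −0.01 and 0.05.

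Across libraries, the closest pair of members was Myrip and Myo7a, and Mertk WT 2 carried part of that. Leaving out Rab27b and Sytl4, the deviations of log2 CPM from the group means correlated at r = 0.773 for Myrip and Myo7a over 15 libraries, the highest of the 21 pairs, and at 0.502 without Mertk WT 2, where both genes were lowest. Without that library the pair was no longer the highest. That check was chosen after seeing the data. Rab27a and Sytl2 correlated at 0.643, or 0.690 without Mertk WT 2, and Mlph and Myo5a at −0.61, or −0.55 without it. These are descriptions over libraries that share their scaling factors, and they carry no test.

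**Figure D4:**
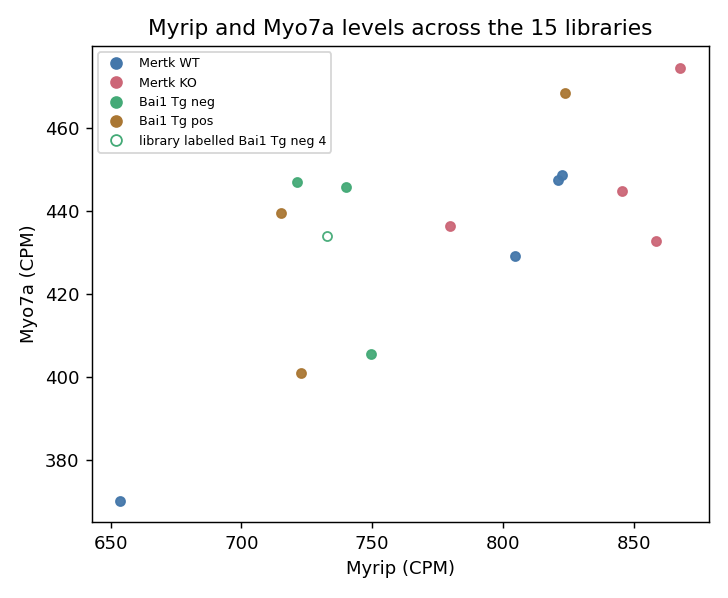
Myo7a against Myrip in CPM for each of the 15 libraries, coloured by group, axes not from 0, with the library labelled Bai1 Tg neg 4 as an open circle. Mertk WT 2 lies alone at 654 CPM of Myrip and 370.3 CPM of Myo7a.

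Genes whose deviations over the 15 libraries were most like those of each member of the RPE complex were taken from 9745 genes with a mean of at least 5 CPM. For Rab27a they were Zfp384 (r = 0.875), Degs1 (0.842) and Calr4 (0.842). For Myrip they were Ccdc124 (0.978), Atp13a2 (0.975) and Rcc2 (0.972), and for Myo7a Pde4a (0.939), Atg2a (0.909) and Iqsec1 (0.895). None of the 9 was a melanosome transport gene of the lists, and Myrip and Myo7a shared none of their 3. The lists hold few of the 9745 genes, and only 3 genes were taken per member, so these absences say little. The library lowest in Myrip and Myo7a enters these r values, and its part in them was not tested.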

How the data were processed

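Poly-A RNA of mouse RPE was measured in 15 libraries. Raw fragment counts for 46078 genes stood in a table deposited by the authors, with summed exon lengths in bases as another column, per the file headers. The counter was featureCounts 1.5.0, run on pairs with both ends mapped, over exons and with no strand option, so genes that overlap on opposite strands cannot be told apart. Alignment was with STAR to GRCm38, per the submitters' processing notes. The sources used here do not give STAR's version or the release of the gene annotation. The library kit was TruSeq RNA, per the labels' protocols.

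Groups follow the library titles. Symbols were matched by identifier to 45143 genes holding 99.9% of the counts. CPM used TMM factors over the 15 libraries, and CPM per kb divides by the deposited exon length. Libraries of a group all differed by more than sampling noise, so none was taken as a repeat reading of another, and each counted as a replicate. That check cannot show whether they came from separate animals. The 3 comparisons were fitted on the libraries of their own groups with edgeR 4.0.16 in R 4.3.3 (TMM, filterByExpr, robust quasi-likelihood F test, two-sided, Benjamini-Hochberg over all genes tested, threshold 0.05), and adjusted p-values are from it unless DESeq2 1.42.0 or limma 3.58.1 (voom with quality weights) is named. Each SE was computed from the log2 fold change and its F statistic, and intervals are at 95%. The fits were tested on simulated data. Promoter sequences are RefSeq's, and transcript lengths GENCODE M21's.

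Members and lists were chosen with earlier results of these data known. Genes named were the 9 members, Mertk, Adgrb1, list genes past the threshold, otherwise the 2 most abundant of each list, and the 3 most like Rab27a, Myrip and Myo7a. Some genes that this rule takes are not reported here. Rab38, Chm, Pcdh15, Rpe65, Best1, the other melanocyte, Mueller glia and smooth muscle markers and untested or undetected list genes fall outside the rule. They were named after their values were seen. Alternatives were DESeq2, limma-voom, RLE size factors, no low-count filter, all libraries in 1 fit, the replicate number as a block, the first tag number as a covariate, each library left out in turn, other length scales and another measure of likeness. Precision follows depth: 3 counts equal 0.15 to 0.312 CPM, and intervals cover no more than the spread between libraries.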

Additional observations from a re-analysis of the deposited data

Results flagged for a closer look

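Each of the 9 members was scanned in every group of 4 libraries for a library set apart from the rest. The limit was Dixon's for the gap over the range, which chance exceeds in about 1 in 20 groups. It was passed in 2 of these sets of a member and a group, and a scan of this many sets can give flags by chance. Whether 2 is more than chance would give was not tested. Myrip was at 653.7 CPM in Mertk WT 2, below the 804 to 823 CPM of the other Mertk WT libraries (gap over range 0.892). That library also had the highest summed rod marker level of the 15, at 3237 CPM, and the lowest Myo7a, at 370.3 CPM, and the part of these in the Myrip value was not tested. Rab27b was at 1.35 CPM (19 counts) in Bai1 Tg neg 3, below the 2.80 to 3.08 CPM of the other Bai1 Tg neg libraries (gap over range 0.835).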

How the results depend on the processing

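Of the members, Sytl2 alone was called under any setting. Its higher level in Bai1 Tg neg than in Mertk WT was called under 13 of 14 alternatives, and the number of members called there ran from 0 to 1 when each library was left out in turn (0 without Bai1 Tg neg 1). In the transgene comparison, where 0 members were called, 1 (Sytl2) was called without the low-count filter, and 0 to 1 when each library was left out (1 without Bai1 Tg pos 3). In the Mertk comparison 0 members were called under each alternative.

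Counts of genes past the threshold moved more, and the cause was not tested. For Mertk, 30 became 77 with DESeq2, 69 without the filter and 16 to 31 with each library left out. For the transgene, 2 became 26 with DESeq2, 85 without the filter, 0 in a fit of all 15 libraries, 0 with limma-voom, and 0 to 54 with each library left out. For the control sets, 58 became 249 with DESeq2, 138 without the filter and 13 to 89 with each library left out. With the replicate number as a block, the transgene comparison called 4 genes and the control sets 106, and no member changed its call. Same-numbered libraries did not deviate together in all pairs (r from −0.23 to 0.39 for Mertk, −0.05 to −0.004 for the transgene and −0.18 to 0.10 for the control sets) and the labels do not pair them, while the number-4 Mertk libraries, the pair at 0.39, also share the first tag number 21. Of the libraries, 4 of 8, 0 of 6 and 2 of 8 in the 3 comparisons correlated best with their own number.

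Small uncalled changes reversed. In the Mertk comparison Sytl4 was at −0.48 with limma-voom, −0.25 with the replicate block and −0.082 with the tag covariate. In the transgene comparison limma-voom gave −0.12 for Rab32, −0.15 for Rab27b and −0.038 for Myo7a, and no filter −0.0029 for Rab32. Between the control sets Myo5a was at 0.0016 without the filter, 0.0031 with all 15 libraries, 0.015 with limma-voom and 0.0027 with the replicate block. With each library left out in turn, the genes that reversed in the Mertk comparison were Rab27a, from −0.061 to 0.00082, Mlph from −0.16 to 0.15, Sytl4 from −0.75 to 0.30 and Rab32 from −0.088 to 0.088. In the transgene comparison they were Rab27a, from −0.033 to 0.060, Rab27b from −0.22 to 0.17, Myrip from −0.029 to 0.072, Myo7a from −0.039 to 0.075, Sytl4 from −0.78 to 0.13 and Rab32 from −0.16 to 0.094. Between the control sets they were Rab27a, from −0.0071 to 0.044, Myo5a from −0.063 to 0.051, Myo7a from −0.030 to 0.059 and Rab32 from −0.038 to 0.13. The other member values, 122 of 135, 100 of 117 and 112 of 126, kept their direction and call.

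With transcript lengths, an alternative added after seeing the data, Rab27a ranked 1 and Myrip 2. TPM left the order as it was. By r over all 15 libraries without removing group means, 1 of the 3 genes most like Rab27a remained, 0 of those of Myrip and 3 of those of Myo7a. The counts of Rab27b and Sytl4 were low in every library, and their intervals were the widest.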
